A study of Arabidopsis thaliana with 3 samples.

Results

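The mature pollen and pollen tube mRNAs described here are a list of 43 Arabidopsis thaliana genes, chosen by gene identifier for their known place in the male gametophyte. They encode pectin-modifying enzymes, SKU5-similar proteins (SKS11 to SKS14), arabinogalactan proteins, actin-binding proteins (profilins, ADF7, ADF10 and PLIM2), the peptides RALF4 and RALF19 with their LRX and receptor kinase partners, and the proton pumps AHA6 and AHA8. Of the 43 genes, 39 had at least 1 read, out of 16577 locus identifiers in the table, and together they held 1282 of 442916 reads. The samples were 3 biological replicates of wild-type (WT) flowers of the Col-0 accession, from plants grown on soil under long days. The tissue is given as flowers in the labels and as flower buds in the methods. No mutant or treatment was included, so every comparison is between mRNAs within the same libraries. Each read of TAIL-seq gives the number of adenosines (As) of 1 poly(A) tail and any uridines (Us) added after it, and replicates 1, 2 and 3 held 222681, 113458 and 106777 reads. The names of the reads place replicates 2 and 3 on a sequencing run that replicate 1 did not share, so the run cannot be told apart from replicate 1.

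Mature pollen is dry and stores much of the mRNA and protein it needs for the fast growth of the pollen tube after landing on the stigma. The tube extends at its tip, where pectin is secreted in esterified form, de-esterified by pectin methylesterases and opened by polygalacturonases and pectate lyases, while actin carries vesicles to the tip. RALF4 and RALF19 are secreted peptides that bind LRX proteins and the receptor kinases ANX1, ANX2, BUPS1 and BUPS2 and keep the tube wall from bursting. Poly(A) tails are made in the nucleus and are shortened in the cytoplasm, and in plants the uridylyltransferase URT1 adds Us mainly to tails that are already short.

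The tails of 4 pollen mRNAs show the range met in the list. They are given as RNA from 5′ to 3′ with As in lower case and added Us in capitals. The uridylated tails printed for RALF4, PGA4 and PRF4 were read in 1 molecule each, and that of AHA6 in 2. They were chosen because, among the 17 members with at least 20 reads, RALF4 was called less uridylated, PGA4 had the highest median length, PRF4 had the most uridylated reads and AHA6 had the lowest median length.
RALF4, median tail of 35 As: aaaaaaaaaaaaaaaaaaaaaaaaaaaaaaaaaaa
RALF4, its single uridylated tail: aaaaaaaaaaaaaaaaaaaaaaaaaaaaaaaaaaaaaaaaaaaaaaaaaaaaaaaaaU
PGA4, median tail of 40 As: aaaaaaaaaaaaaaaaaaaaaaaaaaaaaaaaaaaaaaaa
PGA4, shortest uridylated tail: aaaaaaaaaaaaaaaaaaaaaUU
PRF4, median tail of 25 As: aaaaaaaaaaaaaaaaaaaaaaaaa
PRF4, a uridylated tail with 2 Us: aaaaaaaaaaaaaaUU
AHA6, median tail of 18 As: aaaaaaaaaaaaaaaaaa
AHA6, a uridylated tail: aaaaaaaaaU

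Reads on these mRNAs were unequal between the libraries. Replicate 1 held 992 of them (0.445% of its reads, Wilson 95% interval 0.419 to 0.474%), replicate 2 held 171 (0.151%, 0.130 to 0.175%) and replicate 3 held 119 (0.111%, 0.0931 to 0.133%). These intervals cover counting error only. The mean share was 0.236% ± 0.183 (SD, n = 3), and replicate 1 lay above both others. Fewer pollen grains and less pollen mRNA per grain cannot be told apart in RNA from whole flowers. Of the 17 members with at least 20 pooled reads, 13 had more reads per 100000 in replicate 1 than in both other libraries. How many of all mRNAs did so was not counted, so the 13 cannot be read as particular to the members. The library totals include the mRNAs of another assay, described below, which took reads mainly from replicates 2 and 3. PPME1 had 66.5, 14.1 and 11.2 reads per 100000 in replicates 1, 2 and 3, and RALF4 had 55.7, 5.29 and 6.56. The exopolygalacturonase gene AT3G07850 ran the other way, with 1.35, 17.6 and 16.9.

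A list of 31 other pollen genes, none of them members, also had most reads in replicate 1, with 79.5, 32.6 and 27.2 reads per 100000 in replicates 1, 2 and 3 and a read for 16 of the 31. Tapetum markers, from the anther layer that feeds and coats pollen, had 404, 412 and 315 reads per 100000, and a read was found for all 9. The 5 floral homeotic genes, all with reads, had 135, 65.2 and 72.1, and 3 photosynthesis genes had 559, 196 and 292. Of 4 sperm cell markers, HAP2, DUO1 and GEX2 were at 0 and MGH3 had 3 reads, all in replicate 1. The 22 mRNAs amplified in another assay of the study, with AT2G45160, took reads mainly from replicates 2 and 3, and without them the share of the pollen mRNAs was 0.452%, 0.214% and 0.146%. The part of pollen content, of run and of library in these differences was not tested.

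**Figure D1:**
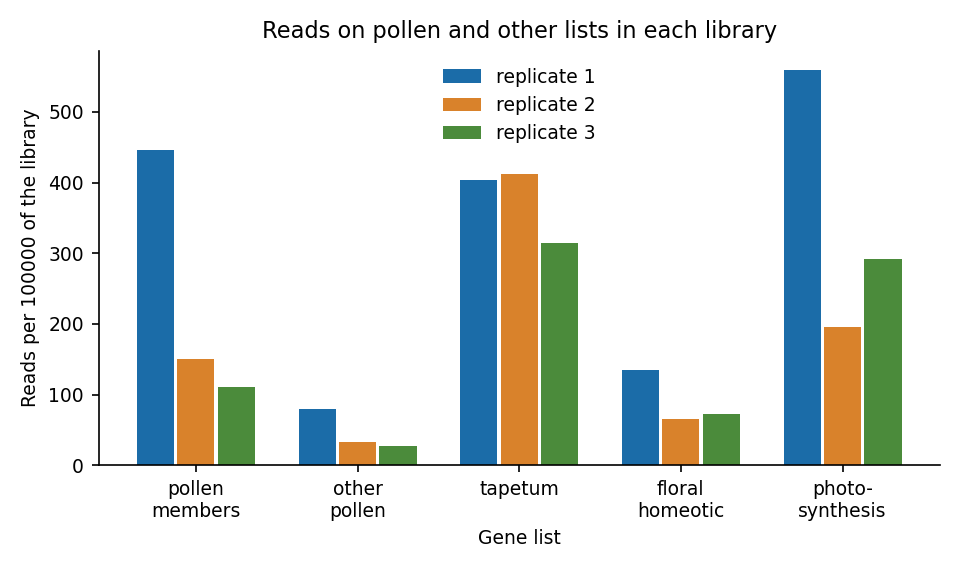
Reads per 100000 of each library (bars, y axis from 0) on the pollen members, other pollen genes, tapetum markers, floral homeotic genes and photosynthesis genes (x axis), with 1 bar for each replicate. The members stood at 445 in replicate 1, 151 in replicate 2 and 111 in replicate 3, while the tapetum markers lay between 315 and 412.

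Taken over all their reads, the pollen mRNAs had longer tails than all other reads of the table in each library. Unless stated, all other reads here and below include the mRNAs of the other assay, which were read mainly in replicates 2 and 3. The values by library were not redone without those mRNAs. The median of tails without added nucleotides was 33, 26.5 and 28 As for pollen mRNAs in replicates 1, 2 and 3, against 26, 22 and 22 As for all other reads. The difference was 5.83 As ± 1.26 (SD, n = 3), with a range of 4.5 to 7 As, and it was positive in all 3 libraries. The lower and upper quartiles of length were 23 to 45, 19 to 36 and 21.5 to 37 As for pollen mRNAs, against 19 to 37, 18 to 29 and 17 to 29 As for all other reads. Tails of at least 40 As made up 36.7%, 16.3% and 22.4% of pollen mRNA tails and 21.3%, 7.99% and 8.01% of the other tails. The 2 distributions overlapped over most of their range in every library. A test over all members was not made, because the list was drawn up with results of these data known and because 5 members supply 54.4% of its reads.

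**Figure D2:**
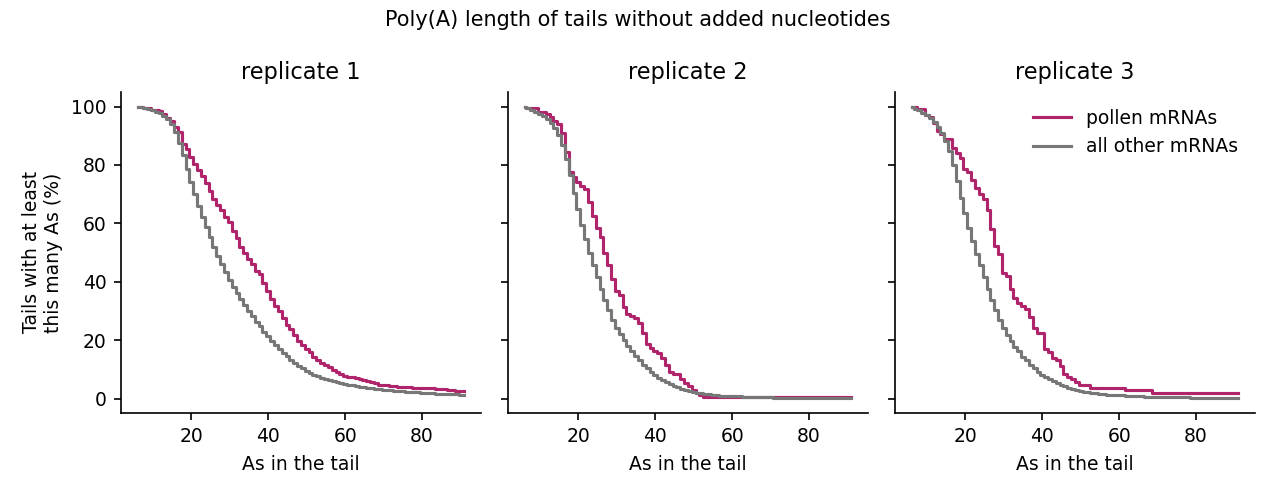
Share of tails without added nucleotides (y axis, %) that have at least the number of As on the x axis, for pollen mRNAs and for all other reads, with 1 panel for each replicate. At 40 As the pollen curve stood at 36.7%, 16.3% and 22.4% in replicates 1, 2 and 3, and the curve of the other reads at 21.3%, 7.99% and 8.01%.

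Tails were also divided into classes by their number of As. Oligoadenylated tails of 10 to 25 As, in which most uridylation is found, made up 30.9%, 43.9% and 34.5% of reads of pollen mRNAs in replicates 1, 2 and 3, against 49.4%, 62.5% and 62.6% of all other reads. Tails under 10 As were 1.41%, 1.75% and 6.72% of pollen reads (14, 3 and 8 reads), against 1.77%, 3.08% and 3.66% of the others. In this shortest class the order was not the same in the 3 libraries. Tails that filled the read at 91 As, whose length is a lower bound, were 2.42%, 0.585% and 1.68% of pollen reads and 1.26%, 0.0909% and 0.177% of the others.

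Each mRNA was then set against all other mRNAs by a two-sided Wilcoxon rank-sum test stratified by library, with Benjamini-Hochberg adjustment over the 3033 mRNAs that had at least 20 tails without added nucleotides. Of the 17 pollen mRNAs that reached this depth, 8 had longer tails and 1 had shorter tails. Among all mRNAs tested, 8.34% had longer and 6.43% shorter tails. Without the mRNAs of the other assay, 8 of the 17 were longer and 1 shorter, against 250 longer and 201 shorter of 3011 mRNAs. The median over the 17 of their median lengths was 31 As, against 24.5 As over all mRNAs tested, and 15 of the 17 lay above 24.5 As. These medians pool libraries of different tail length, and 992 of the 1282 reads of the members came from replicate 1, where tails of all mRNAs were longest. The part of this mix in the pooled gap was not tested, and the tests compare tails within a library. These p-values rest on the spread between reads within 3 libraries and not between plants. With limma on the mean log2 length of each library, which uses the spread between the 3 libraries, none of the 8 members that had enough tails in each library passed. At an unadjusted p under 0.05, limma gave 4 longer and 1 shorter of the 8 members, against 9.17% longer and 5.79% shorter of all mRNAs. With adjustment it called 16 longer and 13 shorter of 1953 mRNAs.

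**Figure D3:**
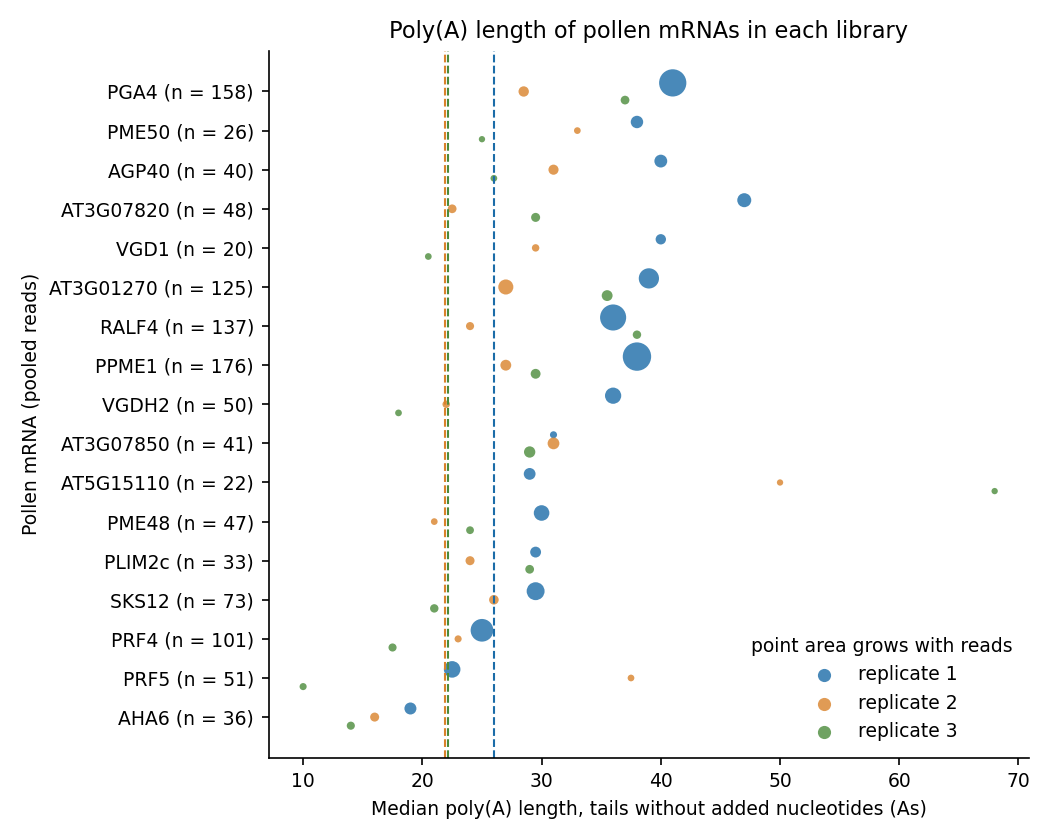
Median poly(A) length in As (x axis) of each of the 17 pollen mRNAs with at least 20 pooled reads (rows), with 1 point for each replicate, whose area grows with its reads, and the median of all other reads of each replicate as a dashed line. PGA4 stood at 41, 28.5 and 37 As in replicates 1, 2 and 3 and AHA6 at 19, 16 and 14 As, while all other reads had 26, 22 and 22 As.

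Among the pectin methylesterases, which remove methyl groups from pectin, 2 of 5 tested had longer tails and none shorter. PPME1, needed for normal growth of the pollen tube (chr1:26343275-26345058 in the RefSeq annotation of TAIR10.1, as are all positions here), had medians of 38, 27 and 29.5 As over 148, 16 and 12 reads in replicates 1, 2 and 3. These and all later medians of single mRNAs use tails without added nucleotides, while the numbers beside them count all reads. For PPME1, 170 of 176 reads were such tails. All 3 medians were above those of all other reads. A tail of PPME1 was longer than a tail of another mRNA of the same library in 68.4% of comparisons (adjusted p = 7.88e-15). In this and all later percentages of shorter tails, tails of equal length were split evenly between shorter and longer. PPME1 shared 31 reads with its paralogue PME48, 17.6% of its own reads and 66.0% of those of PME48. Without shared reads, the value for PPME1 was 71.3% (adjusted p = 2.44e-16), and PME48 fell below the minimum of reads.

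PME50 (chr5:2352436-2354338), another pollen pectin methylesterase, had medians of 38, 33 and 25 As over 23, 2 and 1 reads, and 72.1% of tails of other mRNAs were shorter than its own (adjusted p = 0.00173). The remaining pectin methylesterases did not pass. VGD1 (VANGUARD1, chr2:19327853-19330197), which supports tube growth in the style, had medians of 40, 29.5 and 20.5 As over 14, 4 and 2 reads (adjusted p = 0.0961). VGDH2 (chr3:23016174-23018509), a close relative of VGD1, had medians of 36, 22 and 18 As over 44, 4 and 2 reads (adjusted p = 0.313). PME48 (chr5:2345758-2347565), which acts in the pollen grain, had medians of 30, 21 and 24 As over 40, 2 and 5 reads (adjusted p = 0.389). In replicates 2 and 3 these 3 mRNAs had at most 5 reads each, so their medians there say little.

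All 3 polygalacturonases tested, enzymes that cut de-esterified pectin, had longer tails. PGA4 (chr1:610363-612324) had the highest pooled median of the 17 members tested, 40 As, with 136 of its 158 reads in replicate 1, the library with the longest tails. Its medians were 41, 28.5 and 37 As over 136, 14 and 8 reads in replicates 1, 2 and 3, all above those of all other reads, and 69.5% of tails of other mRNAs were shorter (adjusted p = 5.8e-15). Without replicate 1 the adjusted p of PGA4 was 0.0866, with 65.5% of other tails shorter over 21 tails. AT3G07820 (chr3:2496331-2498095) had 47, 22.5 and 29.5 As over 31, 8 and 9 reads (69.9%, adjusted p = 5.71e-05). AT3G07850 (chr3:2505546-2507558), from the same gene cluster on chromosome 3, had 31, 31 and 29 As over 3, 20 and 18 reads (70.9%, adjusted p = 8.94e-05). It is the only one of the 3 with most of its reads in replicates 2 and 3, and its medians exceeded those of all other reads in each library. The neighbours AT3G07830 and AT3G07840 had 2 reads and 0 reads.

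Of the pectate lyases, which cut pectin by elimination, AT3G01270 (chr3:82581-84901) had longer tails. Its medians were 39, 27 and 35.5 As over 72, 37 and 16 reads, and 65.9% of tails of other mRNAs were shorter (adjusted p = 4.47e-08). All 3 medians were above those of all other reads. AT5G15110 (chr5:4895750-4897966) had a median of 29 As over 20 reads in replicate 1 and single reads of 50 and 68 As in the other libraries (adjusted p = 0.255).

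Among the signalling and wall proteins, RALF4 (RALFL4 in RefSeq, chr1:9882951-9884189) and AGP40 (chr3:7308504-7308962) had longer tails. RALF4 had medians of 36, 24 and 38 As over 124, 6 and 7 reads, above those of all other reads in each library, and 63.2% of tails of other mRNAs were shorter (adjusted p = 2.3e-06). AGP40, a short arabinogalactan peptide of the pollen wall and plasma membrane, had 40, 31 and 26 As over 25, 13 and 2 reads (68.9%, adjusted p = 0.000845). SKS12 (chr1:20757767-20760268), a multicopper oxidase-like protein of the SKU5 family, had 29.5, 26 and 21 As over 55, 11 and 7 reads and did not pass (52.9%, adjusted p = 0.655).

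The profilins had lower pooled medians (25 and 23 As) than any pectin enzyme tested (29 to 40 As). PRF4 (chr4:14447338-14448698), a pollen profilin that binds actin monomers, had medians of 25, 23 and 17.5 As over 92, 3 and 6 reads (44.5% of other tails shorter, adjusted p = 0.232). The other pollen profilin, PRF5 (chr2:8519485-8521275), had 22.5, 37.5 and 10 As over 46, 2 and 3 reads (39.7%, adjusted p = 0.0678). Without replicate 2, PRF5 passed as shorter (37.9%, adjusted p = 0.0281). PLIM2c (chr3:22664425-22665690), which bundles actin filaments, had 29.5, 24 and 29 As over 16, 9 and 8 reads, above all other reads in each library, but did not pass (62.5%, adjusted p = 0.0951). Whether profilins and pectin enzymes differ in tail length was not tested.

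AHA6 (chr2:3169908-3174102), a plasma membrane proton pump of pollen, was the member with shorter tails. Its medians were 19, 16 and 14 As over 21, 9 and 6 reads in replicates 1, 2 and 3, below those of all other reads in each library, and 32.5% of tails of other mRNAs were shorter than its own (adjusted p = 0.00561). Of its reads, 63.9% had 10 to 25 As and 11.1% had under 10 As. AHA8, which acts beside AHA6 in pollen, had 8 reads and a median of 21.5 As.

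The pollen mRNAs also had a lower share of uridylated reads than the rest of the table in each library, and the size of the difference varied. Uridylated tails made up 2.82% of pollen reads in replicate 1 (28 of 992, Wilson 95% interval 1.96 to 4.05%), 2.92% in replicate 2 (5 of 171, 1.26 to 6.66%) and 8.40% in replicate 3 (10 of 119, 4.63 to 14.8%). In all other reads they made up 7.43%, 9.97% and 11.6%. The share was lower for the pollen mRNAs in all 3 libraries, by 4.96 percentage points on average (SD 1.94, n = 3), but in replicate 3 the interval of the pollen mRNAs included the value of the other reads. The means were 4.72% ± 3.19 for pollen mRNAs and 9.67% ± 2.11 for all other reads (SD, n = 3 for both). Tails with a G or C after the As were 5, 0 and 2 of the pollen reads in replicates 1, 2 and 3 (0.504%, 0% and 1.68%), against 0.616%, 0.937% and 0.843% of the other reads. The count of 0 in replicate 2 allows up to 3 reads of 171.

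The 43 uridylated tails came from 19 members and ranged from 6 to 82 As, with a median of 19 As. A single U was found on 33 of them, 2 Us on 8 and 3 Us on 2. By length, 21 had 10 to 25 As, 8 had under 10 As and 14 had over 25 As. PRF4 supplied 7 of the 43, all in replicate 1, with 12 to 41 As before 1 or 2 Us. The other members supplied at most 5 each. PPME1 had 5 uridylated reads, PGA4 and AT3G01270 had 4 each, and RALF4 had 1, the tail of 57 As printed above.

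Per mRNA, uridylation was compared with that of all other mRNAs by the Cochran-Mantel-Haenszel test (two-sided, stratified by library), over 3439 mRNAs with at least 20 reads. Of the 17 pollen mRNAs tested, 1 was less uridylated and 0 were more uridylated, where 5.58% of all mRNAs tested were less and 9.54% more uridylated. The count of members is therefore near the background in the first direction. Without the mRNAs of the other assay, 1 of the 17 was lower and 0 higher, against 209 lower and 291 higher of 3417 mRNAs. At an unadjusted p under 0.05, 4 of the 17 were lower and 0 higher, against 9.62% lower and 14.1% higher of all mRNAs tested. A beta-binomial model, which allows for spread between libraries, called 2 members lower and 0 higher, against 210 lower and 258 higher of 3439 mRNAs. At an unadjusted p under 0.05 it gave 6 members lower and 0 higher, against 15.4% lower and 13.5% higher of all mRNAs. The odds ratio was under 1 for 16 of the 17, and how many of all mRNAs tested lay under 1 was not counted. The 16 include PRF5, AT5G15110 and VGD1, with 0 uridylated reads. The median of all mRNAs tested (8.00%) also lay below all other reads (9.09%), so this count says little about the members. The median of the uridylated percentages of the 17 was 2.84%, against 8.00% over all mRNAs tested and 9.09% of all other reads. These values pool the 3 libraries.

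RALF4 was the mRNA that passed. Its uridylated reads were 1 of 124 in replicate 1, 0 of 6 in replicate 2 and 0 of 7 in replicate 3, together 0.730% (Wilson 95% interval 0.129 to 4.02%), where 10.5 were expected from the uridylation of each library. The odds ratio was 0.089 (adjusted p = 0.0296). Without replicate 3 the adjusted p was 0.0512, with an odds ratio of 0.0965, and with at least 2 Us required it was 0.548. In replicates 2 and 3 RALF4 had too few reads to show a difference of this size.

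The other members did not pass. PPME1 had 3, 1 and 1 uridylated reads in replicates 1, 2 and 3 (2.84%, interval 1.22 to 6.48%, odds ratio 0.341, adjusted p = 0.108). PGA4 had 3, 0 and 1 (2.53%, 0.989 to 6.33%, odds ratio 0.307, adjusted p = 0.111). AT3G01270 had 1, 1 and 2 (3.20%, 1.25 to 7.94%, odds ratio 0.346, adjusted p = 0.192). These 3 and RALF4 were the mRNAs with an unadjusted p under 0.05. SKS12 had 1 uridylated read of 73 (1.37%, odds ratio 0.158, adjusted p = 0.23).

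No uridylated read was found for PRF5 in 51 reads, which allows a share of up to 5.88%, for AT5G15110 in 22 reads (up to 13.6%) or for VGD1 in 20 reads (up to 15%). The odds ratio of PRF5 had an adjusted p of 0.272, and in the beta-binomial model PRF5 was called less uridylated (adjusted p = 0.0469). PRF4, the profilin with 7 uridylated reads of 101 (6.93%, interval 3.40 to 13.6%), had an odds ratio of 0.9 (adjusted p = 1). PLIM2c had the highest share of the 17, 3 uridylated reads of 33 (9.09%, 3.14 to 23.6%), with an odds ratio of 1. The 6 remaining mRNAs (VGDH2, PME48, PME50, AT3G07820, AT3G07850 and AGP40) had 1 to 3 uridylated reads each, and AHA6 had 2 of 36 (5.56%), both after 9 As. None of these passed.

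**Figure D4:**
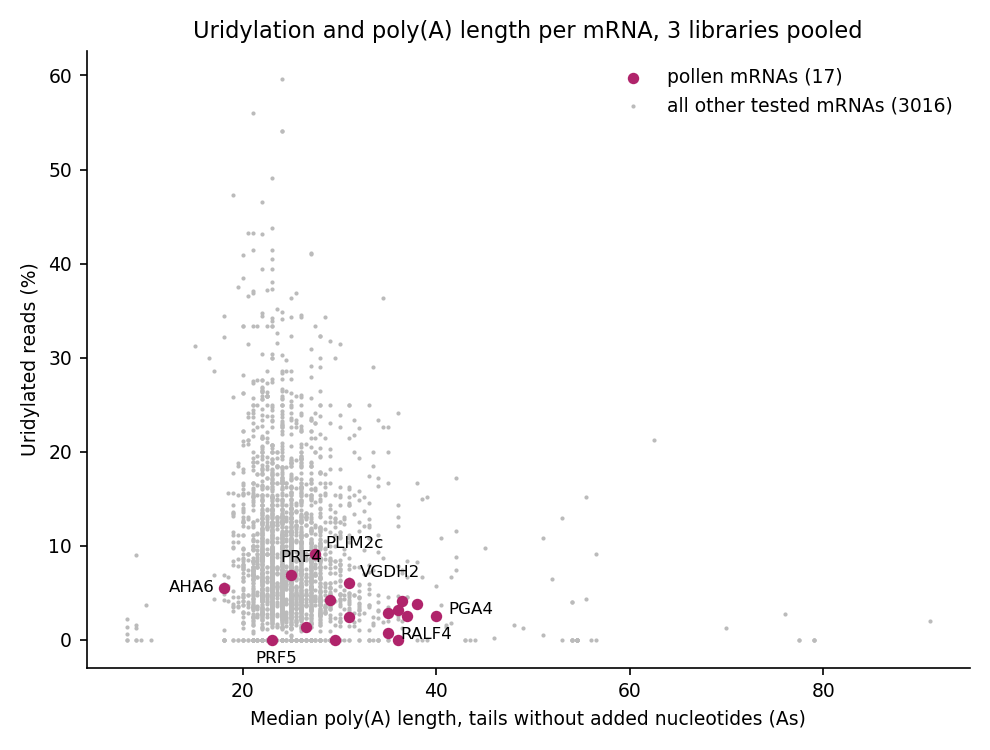
Uridylated reads (y axis, %) against the median poly(A) length in As (x axis), each point 1 mRNA with at least 20 pooled reads and 20 tails without added nucleotides, over the 3 libraries together. The 17 pollen mRNAs are the large points, with PGA4 at 40 As and 2.53%, RALF4 at 35 As and 0.730% and AHA6 at 18 As and 5.56%.

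Uridylation falls with tail length, so the comparison was repeated between tails of equal length. Over the members together, 43 uridylated reads were found, where 104.6 were expected from the uridylation of each library and 73.7 from that of other tails with the same number of As in the same library. By library, 28, 5 and 10 were found in replicates 1, 2 and 3 against 51.5, 12.2 and 10.1 expected at equal length. The ratio of found to expected was 0.544, 0.412 and 0.992, so replicate 3 did not share the deficit of the others. No test was made over the members.

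Within the class of 10 to 25 As, uridylated tails were 3.58% (11 of 307), 5.33% (4 of 75) and 14.6% (6 of 41) of pollen reads, against 12.3%, 13.7% and 16.0% of all other reads. In tails of over 25 As they were 1.94% (13 of 671), 1.08% (1 of 93) and 0% (0 of 70) of pollen reads, against 1.61%, 1.97% and 1.93% of the other reads. In tails of under 10 As, 4 of 14, 0 of 3 and 4 of 8 pollen reads were uridylated, against 1258 of 3933, 849 of 3486 and 1024 of 3907 other reads. The share of pollen reads was below that of the other reads in all 3 libraries for tails of 10 to 25 As. In replicate 3 that gap was small (14.6% against 16.0%) and rested on 6 uridylated reads of 41. In the shorter and longer classes the order changed between libraries. The count of 0 of 70 in replicate 3 allows up to 3 reads.

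With library and number of As both as strata, 0 of the 17 members were called less uridylated and 0 more uridylated by the Cochran-Mantel-Haenszel test, where 4.1% of all mRNAs tested were less and 7.85% more uridylated. At an unadjusted p under 0.05, 2 of the 17 were lower (RALF4 and PRF5) and 0 higher, against 8% lower and 12.6% higher of all mRNAs tested, so the count of members lower was near the background. RALF4 had 1 uridylated read where 6.30 were expected at equal length (odds ratio 0.158, adjusted p = 0.195), and PRF5 had 0 where 4.98 were expected (adjusted p = 0.136). AHA6, the member called shorter, had 2 where 6.30 were expected (odds ratio 0.236, adjusted p = 0.316). PPME1 had 5 where 6.55 were expected, PGA4 had 4 where 6.65 were expected and AT3G01270 had 4 where 7.12 were expected. PRF4 had 7 where 7.66 were expected. Fewer were found than expected for 15 of the 17, and how many of all mRNAs tested lay below expectation was not counted. The 15 include VGD1 and AT5G15110, with 0 found where 0.976 and 0.832 were expected. In this test, 3 of 4 members were lower without replicate 1, 11 of 16 without replicate 2 and 13 of 16 without replicate 3. The matching shares of all mRNAs were not counted.

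**Figure D5:**
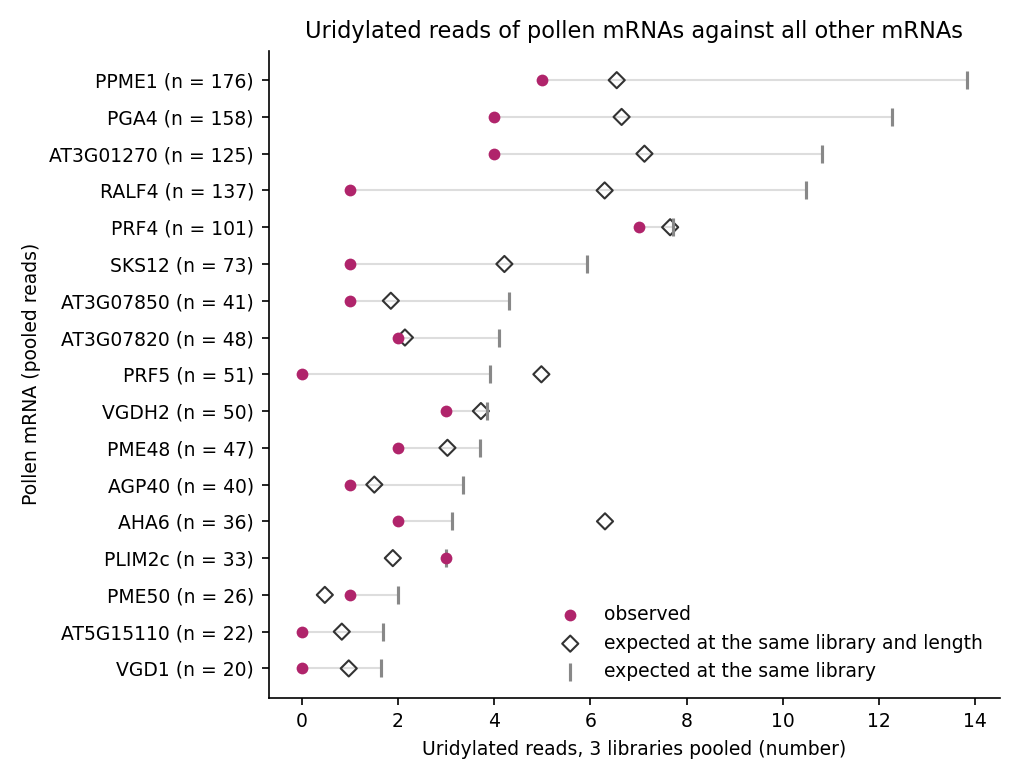
Number of uridylated reads (x axis) of each of the 17 pollen mRNAs (rows) over the 3 libraries together, with the number found as a filled point, the number expected from other tails of the same library and length as a diamond, and the number expected from the library alone as a bar. RALF4 had 1 against 6.30 and 10.5 expected, AHA6 had 2 against 6.30 and 3.13, and PRF4 had 7 against 7.66 and 7.72.

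Of the members with a read, 22 had fewer than 20 and entered no test. They included SKS13 and ADF7 with 19 reads each, AGP11 with 13, SKS11 with 11, and VGDH1 and AHA8 with 8 each. ADF7, which remodels actin filaments in pollen, had 3 uridylated reads, of 12, 12 and 50 As before a single U, and ADF10 had 1 of 6. VGDH1 shared 4 of its reads with its neighbour VGD1. The receptors and wall partners of RALF4 were hardly read. ANX1 had 4 reads, ANX2 had 1, LRX8, LRX9 and LRX11 had 1 each, and all 3 reads of BUPS1 were also given to the neighbouring AT4G39120. RALF19, which acts together with RALF4, had 6 reads, all in replicate 1, with a median of 20.5 As. The 4 members without a read were the polygalacturonase gene AT3G07840, the pectate lyase gene AT59, PLIM2b and LRX10, which at this depth does not show that they are silent.

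Members of the same families that are expressed outside pollen were counted for comparison. Of 46 such genes, 44 had reads and 19 were tested for length. Of the 19, 1 (SKS6) had longer and 5 had shorter tails, against 8.34% and 6.43% of all mRNAs tested. The 2 lists hold different mixes of families. The family genes include no polygalacturonase or pectate lyase, which gave 3 and 2 of the 17 tested members. Actin depolymerizing factors gave 5 of the 19 family genes tested and 0 of the tested members. With these unlike mixes, the median over the tested mRNAs was 31 As and 2.84% uridylated for the members, against 23 As and 6.41% for the family genes. Both values pool the 3 libraries, and replicate 1, with most of the member reads, had the longest tails and the lowest uridylation of all libraries. The family genes also had most of their reads there (1397 of 2060). Over all reads of each list, medians by library were 33, 26.5 and 28 As for members and 24, 21 and 22 As for family genes. Uridylated shares were 2.82%, 2.92% and 8.40% for members and 5.08%, 7.96% and 10.5% for family genes. RALF4 had a pooled median of 35 As, while RALF23, a broadly expressed peptide of the family, had 21 As over 156 reads and shorter tails than other mRNAs (22, 21 and 18 As in replicates 1, 2 and 3, adjusted p = 0.000443). AGP40 had 37 As, while AGP15, another arabinogalactan peptide, had 21 As over 364 reads and shorter tails (adjusted p = 2.26e-16). The pollen profilins PRF4 and PRF5 had 25 and 23 As, while PRF1, PRF2 and PRF3 had 19, 26 and 25 As. AHA6 had 18 As, while AHA1, the pump of most tissues, had 27 As over 68 reads and AHA3 had 21.5 As over 26 reads. In the SKU5 family the pollen gene had the lower value too. SKS12 had 26.5 As, while SKU5 had 30 As over 46 reads and SKS6 had 36 As over 43 reads. Differences between the pollen genes and their family counterparts were not tested.

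Other pollen mRNAs gave few values. Of the 31 on the separate list, 4 reached 20 reads. SUC1, a sucrose transporter of pollen, had 34.5 As over 53 reads (42, 26 and 34 As in replicates 1, 2 and 3) and longer tails than other mRNAs (adjusted p = 0.00451). The reproductive actins ACT3 and ACT4 had 25 As each and the LAT52-like gene AT5G45880 had 22 As, and none of these 3 passed. Over all 31 genes, 18 of 243 reads were uridylated (7.41%, Wilson 95% interval 4.74 to 11.4%), where the members had 3.35%. ACT3 had 7.50% and ACT4 12.8%, while SUC1 had 1.89% and AT5G45880 had 0 of 21, and none of the 4 was called in either direction by the Cochran-Mantel-Haenszel test (adjusted p of 0.374 to 1). Whether the 2 lists differ was not tested. Of the 8 tapetum mRNAs tested, 1 had longer and 3 had shorter tails (8.34% and 6.43% of all mRNAs tested), with a median over mRNAs of 23.5 As. Of the 8, 3 were less uridylated, against 5.58% of all mRNAs tested. Uridylated shares by library were 2.45%, 2.14% and 4.46% for the tapetum list and 2.82%, 2.92% and 8.40% for the members. They were 3.70%, 5.41% and 7.05% for the photosynthesis genes and 9.33%, 12.2% and 6.49% for the floral homeotic genes. A low share was not particular to pollen mRNAs.

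Annotated gene structure, which the choice of the list did not use, was compared as a description with no test. The median mRNA length was 1509 nucleotides for the 17 tested members and 1391 for the other tested mRNAs with an annotated transcript, and the median 3′ UTR was 289 against 296 nucleotides. The median number of exons was 4 in both. A single exon was annotated for 2 of the 17 members, RALF4 and AGP40, or 11.8%, against 13.9% of the others. The letters AATAAA in the last 50 bases of the transcript, searched on the sense strand, were found in 0 of the 17 members and in 10.1% of the others. With 17 mRNAs, a count of 0 allows up to 3 and does not set the members apart. The letters were present in AGP23 and ADF10, members with too few reads for a test. These are descriptions of the annotated transcript ends, which need not be the ends of the molecules read.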

How the data were processed

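Poly(A) tails of 3 biological replicates of Col-0 flowers were read by TAIL-seq. Per the supplementary methods and the labels, the authors collapsed reads with identical first 15 cycles of read 2, mapped read 1 to TAIR10 with HISAT2 2.1.0 and Bowtie2, assigned it to genes with BEDTools 2.17.5, and took the As and added nucleotides from read 2. The deposited values give the length of each single tail in nucleotides, not normalised, with the authors' call of the added nucleotide, and replicates were not pooled. Stretches under 6 As were not recorded, and 91 is the highest length. No column was left unused for want of a sample (0).

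The table of 455742 lines held 172 repeats, which were dropped. A read given to several genes entered the values of each of these genes. Reads of pollen mRNAs given also to another locus were 3.04%. Uridylation was tested by a Cochran-Mantel-Haenszel test and length by a stratified Wilcoxon rank-sum test (van Elteren weights), each fitted over all mRNAs with at least 20 reads or tails, with Benjamini-Hochberg adjustment at 0.05. For equal length, each number of As was a stratum. Shares have Wilson 95% intervals, with an upper limit of 3 reads for a count of 0. Replicates are biological per the labels, but the tests rest on reads. Every member with at least 20 reads was described by value, and genes of the other lists by counts, with family counterparts or the most read gene named. The members and all lists were chosen with earlier results of these data known. Alternatives were each replicate left out, minima of 10 and 50 reads, removal of shared reads or of tails at 91 As, at least 2 Us, other definitions of length, equal weight of members, a beta-binomial model and limma on libraries with at least 5 tails each. The tests were checked on simulated data in which reads varied independently within each library. That check does not cover spread between libraries or plants. Positions and transcript structure came from RefSeq TAIR10.1, in which all 43 members had an entry. Tools were Python 3.11.15, SciPy 1.17.1, pandas 2.3.3, R 4.3.3 and limma 3.58.1.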

Additional observations from a re-analysis of the deposited data

How the results depend on the processing

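Depth, the spread between 3 libraries and the run of replicate 1 limit these values. Only 4 members reached 20 reads without replicate 1, which holds 992 of the 1282 member reads, and the tests use the spread between reads. No paired analysis was possible because the 3 libraries form 1 group, with no second group of samples to pair; members and other reads were compared within each library.

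The number of members with longer tails was 3 to 8 when each replicate was left out in turn, with 3 of 4 tested without replicate 1 (all mRNAs: 104 of 1299), 4 of 7 at a minimum of 50 reads (181 of 1320), and 0 of 8 with limma over libraries (16 of 1953). The number with shorter tails was 0 to 2 when each replicate was left out (PRF5 was added without replicate 2, and passed at a minimum of 50 reads too, adjusted p = 0.0425) and 0 with limma. The limma effects on log2 length were 0.35 for PPME1 (adjusted p = 0.0735), 0.35 for PGA4 (0.152), 0.35 for AT3G07820 (0.347), 0.39 for AT3G01270 (0.100), 0.25 for RALF4 (0.412) and -0.36 for AHA6 (0.0890). The number of less uridylated members was 0 to 1 when each replicate was left out, 0 with at least 2 Us required and 2 (RALF4 and PRF5) with the beta-binomial model. With at least 2 Us the mean uridylated share of members was 1.48%.

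No call changed direction. Among uncalled odds ratios, PLIM2c was at 0.446 without replicate 2 and 0.964 without replicate 3, 0.994 without shared reads and 0.943 without the mRNAs of the other assay, a removal chosen after seeing the data. At equal length, PPME1 was at 1.05, PME50 at 0 and AT3G07850 at 2.26 with at least 2 Us. With a replicate left out, the odds ratios at equal length ran between 0.624 and 2.13 for PPME1, 0.761 and 1.51 for AT3G07820, 0.772 and 1.09 for AGP40 and 0.946 and 1.08 for PRF4, and that of AT3G07850 reached 1.29. Other counts over members moved by less than 1.5 times.

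Over all mRNAs, 102 to 211 were more uridylated when a replicate was left out, 603 at a minimum of 10 reads, 123 at 50 and 194 with at least 2 Us, and 73 and 94 were less uridylated without replicate 1 and with at least 2 Us. Longer tails were called for 104 and shorter for 62 without replicate 1. At equal length, 85 to 152 were more uridylated when a replicate was left out, 408 and 113 at minima of 10 and 50 and 126 with at least 2 Us, and 46 and 56 were less uridylated without replicate 1 and with at least 2 Us. Leaving out a replicate also removes reads and mRNAs from the test, and the minima change which mRNAs are tested; otherwise the cause was not tested.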
